A study of Mus musculus with 15 samples.

Results

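Mouse lymphatic endothelial cells (LECs) held for 24 h in angiotensin II (Ang II) were set against saline-treated control cells, gene by gene, over 5 arrays of each group. The members were all probe sets that carry exactly 1 gene symbol, 19572 of the 22206 on the array, without regard to their values. Those with a mean log2 value above 6.26 over the 10 arrays, 2836 probe sets of 2834 genes, are called well measured here, and the other 16736 are called near background. The mark of 6.26 is the level below which nearly all probe sets of gene families that are silent outside their own organs lie, and it does not show which single gene is expressed, because the level of a probe set also depends on its probes. The cells were purchased, are a murine LEC line by the sample labels and primary cells by the study's introduction, and were cultured in DMEM basic medium with fetal bovine serum. The treated group received Ang II at 500 nM by the sample labels, while the methods also name a lower dose, and the control group received saline. The control has no stated harvest time, so Ang II and time in culture cannot be told apart. The replicates are numbered, nothing states that they were separate cultures, and every p-value here is therefore set by a spread among samples that may be only technical. The remaining group of 5 arrays, 12 h of Ang II, shared the same controls and entered the fit to estimate the spread.

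Ang II is the effector hormone of the renin-angiotensin system. Its type 1 receptor couples to G proteins and, in cells that carry it, activates calcium, protein kinase C and MAP kinase signaling, which induces early response genes of the Fos, Jun, Egr and Myc families within minutes to hours. The same pathways induce their own inhibitors, such as the dual-specificity phosphatases, so that many of these transcripts are short-lived and return toward or below their starting level. In lymphatic endothelium, proliferation and migration are driven mainly by Vegfc through Flt4, while Notch signaling, read out by Hes and Hey genes, restrains sprouting.

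The array medians lay between 4.80 and 4.84. The third replicate of the control group and that of the 24 h group lay apart from the rest, with mean correlations to the other arrays of 0.957 and 0.962 across probe sets, against 0.966 to 0.969 for the other arrays. Several list counts are also given without both. Of 10 probe sets of lymphatic endothelial identity genes 2 lay above the mark, those of the nuclear receptor gene Nr2f2 and the chemokine gene Ccl21a, and those of Lyve1, Prox1, Flt4 and Pdpn lay below it in both groups. Of 13 endothelial probe sets only that of the ETS factor gene Fli1 lay above it, and Pecam1, Cdh5 and Kdr lay below it. No fibroblast marker (of 6) and no smooth muscle or pericyte marker (of 6) lay above the mark, against 1 of 4 leukocyte markers, Ptprc, and 2 of 4 epithelial markers, Krt8 and Krt18. Most of the defining markers of the labelled cell type were thus not above the mark on these arrays. The probe set of Gapdh, the reference gene of the authors' PCR, also lay below it, with means of 4.13 in control cells and 4.29 at 24 h. A place below the mark therefore does not show that a marker was not expressed. In such bulk RNA a change in the number of cells of a type and a change in RNA per cell cannot be told apart.

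At 24 h, 4 genes passed an adjusted p under 0.05, all of them lower than in control cells, and 0 higher genes passed. These 4 made up 0.018% of the 22206 probe sets tested with limma and the Benjamini-Hochberg adjustment. Before adjustment, 693 of the named probe sets were lower (3.54%) and 698 were higher (3.57%) at a p under 0.05. The balance differed by intensity. Among well measured probe sets 183 were lower (6.45%) and 105 higher (3.7%), and near background 510 were lower (3.05%) and 593 higher (3.54%). In either direction, 10.2% of the well measured and 6.59% of the near background probe sets had an unadjusted p under 0.05. The excess of lower values was greatest between log2 levels of 8 and 10, where 52 of 526 probe sets were lower (9.89%) and 14 were higher (2.66%). The median log2 fold change of all well measured probe sets was -0.02.
Without control replicate 3 and Ang II 24 h replicate 3, 97 well measured probe sets were lower and 92 higher, so the excess of lower values was then nearly gone. After quantile normalization 155 were lower and 129 higher, and after median centring 198 and 96.

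**Figure D1:**
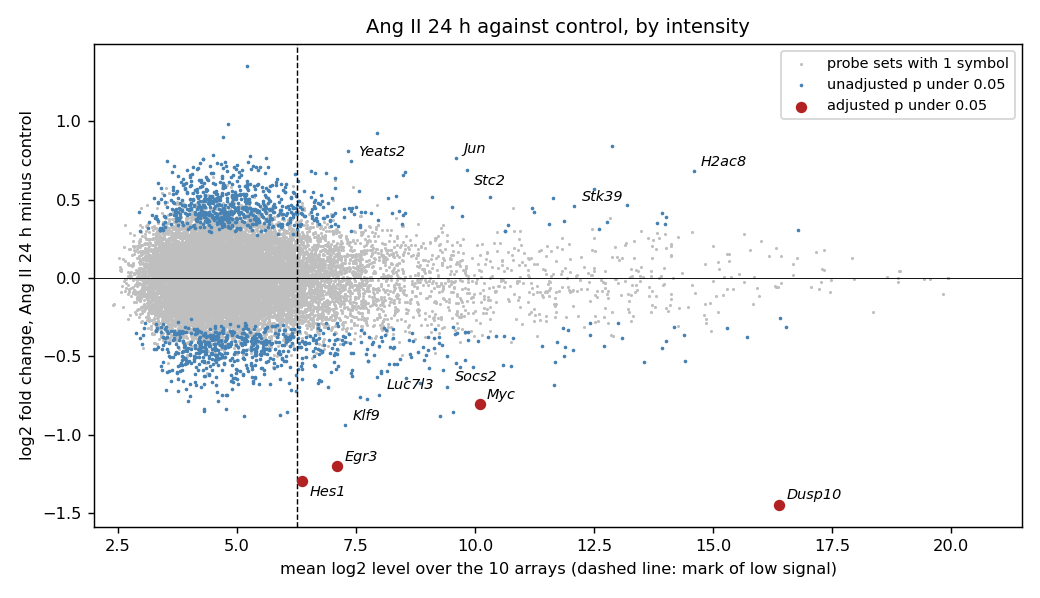
Log2 fold change of Ang II 24 h over control (y axis) against the mean log2 level over the 10 arrays (x axis) for 19572 probe sets, with the mark of 6.26 as a dashed line and 12 genes named. The 4 genes past the adjusted threshold all lie below 0 and above the mark, and most of the unadjusted differences lie left of the mark.

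**Figure D2:**
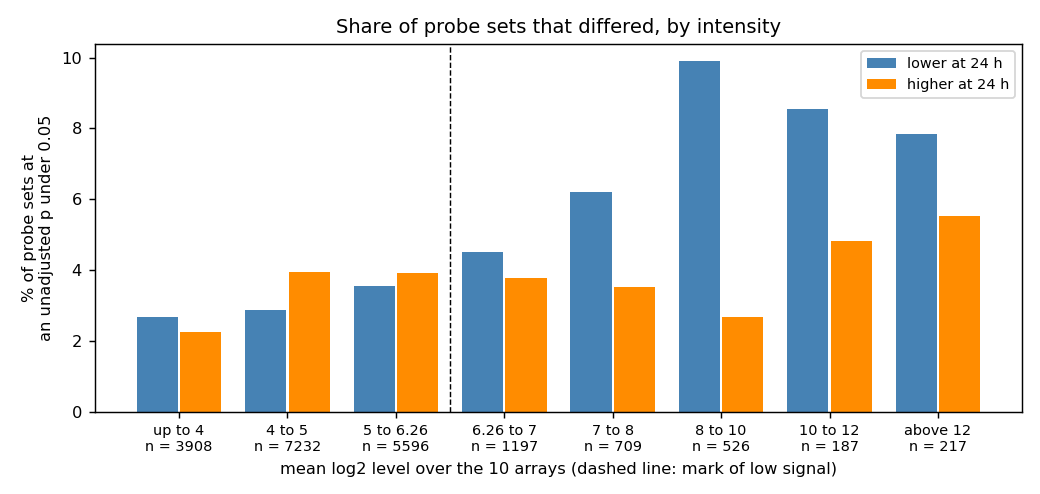
Percent of probe sets at an unadjusted p under 0.05 (y axis), lower in blue and higher in orange, in 8 ranges of the mean log2 level (x axis). Lower values outnumber higher ones in every range above the mark, most between 8 and 10 (9.89% against 2.66%) with all 10 arrays.

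In 48 well measured probe sets all 5 arrays of 24 h lay below all 5 control arrays (1.69%), and in 19 they lay above (0.67%). Near background the groups did not overlap in 73 lower (0.436%) and 66 higher probe sets (0.394%). In the 12 h group, set against the same controls, 77 well measured probe sets were lower and 51 higher at an unadjusted p under 0.05. In either direction these were 4.51% of the well measured probe sets, beside 4.98% near background at 12 h. At 24 h the share of the well measured was 10.2%.

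The gene with the smallest p-value was Dusp10, whose product is a dual-specificity phosphatase of p38 and JNK. Its log2 values in control replicates 1 to 5 were 17.29, 17.06, 17.27, 17.17 and 16.79, and at 24 h they were 15.83, 15.78, 15.55, 15.87 and 15.31. The lowest control array lay above the highest treated array by nearly a whole log2 unit. Dusp10 fell by 1.45 on the log2 scale (standard error 0.17, limma adjusted p = 0.00134).
Hes1 encodes a basic helix-loop-helix repressor downstream of Notch. It had log2 values of 6.88, 6.90, 7.23, 6.93 and 7.19 in control cells and of 6.14, 5.75, 5.17, 5.95 and 5.63 at 24 h. All control arrays were above the mark and all treated arrays below it, with treated replicate 3 the lowest. Hes1 fell by 1.30 (standard error 0.16, adjusted p = 0.00155), and by 1.11 without both arrays that stood apart (adjusted p = 0.0214).
Egr3 belongs to the zinc finger factors of the early response, and the probe set that passed is 1 of 3 for the gene. Its values were 7.54, 7.61, 8.14, 7.54 and 7.72 in control cells and 6.89, 6.93, 6.33, 6.34 and 6.06 at 24 h, without overlap, and it fell by 1.20 (standard error 0.18, adjusted p = 0.0118). The identifier of this probe set marks it as unmapped, and the other 2 probe sets of Egr3 had log2 fold changes of -0.25 and -0.01, both below the mark. The probe sets of the gene thus disagree.
Myc, a transcription factor of growth and ribosome production, had values of 10.50, 10.35, 10.56, 10.49 and 10.62 in control cells and of 9.76, 9.89, 9.34, 9.65 and 9.86 at 24 h. The spread of its control arrays was the narrowest of the 4 genes (SD 0.10, n = 5), and the groups stood clearly apart. Myc fell by 0.80 (standard error 0.13, adjusted p = 0.0320).
The calls of Dusp10 and Hes1 were kept under all 26 alternatives run, and those of Egr3 and Myc were lost under several. Egr3 was lost without control replicate 3 or 5 or Ang II 24 h replicate 3, 4 or 5, and Myc was lost without any single array other than replicate 4 of the 12 h group and replicate 2 of the 24 h group.

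**Figure D3:**
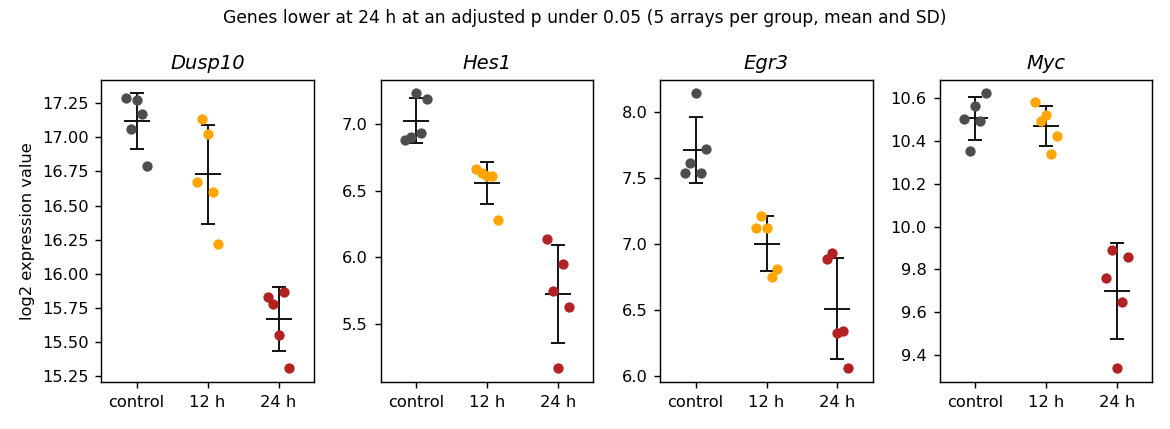
Log2 expression values (y axis, scaled per gene) of Dusp10, Hes1, Egr3 and Myc on each of 5 arrays of control, Ang II 12 h and Ang II 24 h, with the mean and SD in black. In each gene the 5 arrays of 24 h lie below all 5 control arrays. The mean of Myc at 12 h lies within its control range, and replicate 4 of 12 h (10.34) lies just below that range.

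The 12 h arrays of the called genes were set beside these values. Myc had means of 10.50 in control cells, 10.47 at 12 h and 9.70 at 24 h. Its difference between 24 h and 12 h was -0.77 (standard error 0.13, adjusted p = 0.0452). Dusp10 had means of 17.12, 16.73 and 15.67, with a difference between 24 h and 12 h of -1.06 (standard error 0.17, adjusted p = 0.0424). In that contrast 5 of the 22206 probe sets passed (0.0225%). The other 3 were Ube2u, Gm5885 and Nsun3, all near background. For Hes1 the mean was 6.56 at 12 h, between 7.03 in control cells and 5.73 at 24 h. Its difference between 24 h and 12 h was -0.83 and did not pass (standard error 0.16, limma adjusted p = 0.169). Egr3 had means of 7.71 in control cells, 7.0 at 12 h and 6.51 at 24 h, with a difference between 24 h and 12 h of -0.49 (standard error 0.18, adjusted p = 0.787).

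Upstream sequence was available from RefSeq (GRCm38.p6) for 15745 of the 19572 probe sets by gene ID. It was not available for the called genes Hes1, Egr3 and Myc. The stretches printed here are the 250 bases before the annotated start of Dusp10, the gene with the largest fall, and of 3 transcription factor genes of the early response or Krueppel-like families with non-overlapping groups (Klf9 and Fosb lower, Jun higher, none past the adjustment), so that the elements through which such genes are classically induced can be looked for. Capitals mark every match, on either strand, to the cAMP response element TGACGTCA and its core TGACG, AP-1 TGANTCA, the RBPJ site TGGGAA, the N-box CACNAG, the E-box CACGTG, the EGR site GCGNGGGCG, the GC box GGGCGG, the CArG box, the GAS element TTCNNNGAA and the TATA box TATAAA. Sites that overlap run together. Near matches stay in lower case, such as tgacatca in the Dusp10 and Jun stretches, which differs from TGACGTCA in a single letter.
Dusp10, chr1:184034131-184034380, plus strand: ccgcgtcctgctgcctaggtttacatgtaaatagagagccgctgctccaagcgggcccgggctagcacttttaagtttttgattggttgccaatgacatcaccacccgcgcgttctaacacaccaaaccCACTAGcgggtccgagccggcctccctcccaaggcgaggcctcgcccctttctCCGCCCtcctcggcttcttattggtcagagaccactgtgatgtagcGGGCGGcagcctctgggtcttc
Klf9, chr19:23140976-23141225, plus strand: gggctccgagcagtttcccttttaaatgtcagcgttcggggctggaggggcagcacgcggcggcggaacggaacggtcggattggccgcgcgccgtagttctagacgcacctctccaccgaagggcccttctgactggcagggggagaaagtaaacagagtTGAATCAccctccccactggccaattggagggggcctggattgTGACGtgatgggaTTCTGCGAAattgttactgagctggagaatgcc
Fosb, chr7:19310046-19310295, minus strand: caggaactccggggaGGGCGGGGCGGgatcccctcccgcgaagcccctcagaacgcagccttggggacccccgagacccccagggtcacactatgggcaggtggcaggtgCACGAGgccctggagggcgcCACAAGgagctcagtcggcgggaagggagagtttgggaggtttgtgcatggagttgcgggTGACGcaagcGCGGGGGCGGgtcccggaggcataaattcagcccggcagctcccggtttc
Jun, chr4:95052223-95052472, minus strand: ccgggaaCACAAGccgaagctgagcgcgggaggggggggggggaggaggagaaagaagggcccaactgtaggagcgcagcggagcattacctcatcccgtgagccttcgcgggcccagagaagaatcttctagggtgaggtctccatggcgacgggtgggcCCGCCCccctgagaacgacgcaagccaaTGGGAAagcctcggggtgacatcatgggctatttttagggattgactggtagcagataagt
The Dusp10 stretch held GC boxes beginning 68 and 22 bases before the start and an N-box at 121. Klf9 held an AP-1 match at 89, the core TGACG at 46 and a GAS match at 33 bases before the start. Fosb held the core TGACG at 60, N-boxes at 140 and 120, overlapping GC boxes at 235 and 230 and, at 50, an EGR match that overlaps a GC box at 46. The Jun stretch held an RBPJ match at 61, a GC box at 89 and an N-box at 243. Over 32851 upstream stretches of the same length, a GC box was held by 32.7%, an N-box by 36.7%, an RBPJ match by 21.6%, the core TGACG by 17.8%, a GAS match by 7.02%, an AP-1 match by 6.75% and an EGR match by 4.7%. The whole cAMP response element was held by 1.55% and the CArG box by 1.47%, and neither was in the 4 stretches. These are matches of letters, not measured sites.

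The 12 largest falls among well measured genes without overlap and with an unadjusted p under 0.01 were, after the 4 genes above with their adjusted calls, Klf9, Luc7l3, Socs2, Abcf1, Sp4, Ddx1, Ncoa7 and Epha4. Of these 8, none passed the adjustment (limma adjusted p of 0.307 to 0.563).
Klf9, a Krueppel-like repressor gene that glucocorticoids induce, had log2 values of 7.61, 7.31, 8.49, 7.66 and 7.67 in control cells and of 7.08, 7.12, 6.80, 6.84 and 6.21 at 24 h. The groups did not overlap, but control replicate 3 was far above its group. Its log2 fold change was -0.94 (standard error 0.26, unadjusted p = 0.00169) and -0.75 without both arrays that stood apart.
Luc7l3 encodes a splicing factor associated with the U1 snRNP. It had values of 8.37, 8.49, 8.19, 8.12 and 8.67 in control cells and of 7.32, 8.08, 7.50, 7.48 and 7.74 at 24 h, where replicate 2 nearly reached the lowest control array. The log2 fold change was -0.74 (standard error 0.15, adjusted p = 0.307), and it passed when only probe sets above the mark were tested (adjusted p = 0.0477).
Socs2, which encodes a feedback inhibitor of growth hormone and cytokine receptors, had values of 9.86, 9.74, 10.09, 9.51 and 9.63 in control cells and of 9.19, 9.35, 9.37, 8.66 and 8.79 at 24 h. Its log2 fold change was -0.69 (standard error 0.18, adjusted p = 0.449).
Sp4, a gene of the GC box-binding Sp family, had values from 6.54 to 6.88 in control cells and from 5.82 to 6.41 at 24 h, with a log2 fold change of -0.64. The 24 h mean of Sp4, 6.06, lay below the mark. The RNA helicase gene Ddx1 had values from 7.40 to 8.21 and from 7.03 to 7.25, with a log2 fold change of -0.63, so that its treated arrays lay very close together (SD 0.10, n = 5) while its control arrays spread (SD 0.38). Ncoa7, a nuclear receptor coactivator gene linked to oxidation resistance, had values from 8.08 to 8.55 and from 7.50 to 7.95, with a log2 fold change of -0.61.
For Abcf1, a translation factor gene of the ABC family, and Epha4, an ephrin receptor gene, a single array weighed heavily. Abcf1 had a log2 fold change of -0.65 with treated replicate 3 at 5.77 below a range of 6.51 to 6.66, and of -0.43 without both arrays that stood apart. Epha4 had -0.61 with control replicate 3 at 8.62 above a range of 7.42 to 7.56, and -0.33 without both.

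The 12 largest rises by the same rule were Jun, Yeats2, Stc2, H2ac8, Tango2, Plscr2, Sprr1b, Prpsap1, Ptprc, Fubp3, Stk39 and Pakap, and none of them passed the adjustment (limma adjusted p of 0.307 to 0.565).
Jun, the AP-1 subunit gene, was the only early response factor among them. Its log2 values were 8.43, 9.38, 9.52, 9.52 and 9.27 in control cells and 10.38, 10.21, 9.91, 9.73 and 9.72 at 24 h. Control replicate 1 was about a log2 unit below its group. The log2 fold change was 0.77 (standard error 0.21, adjusted p = 0.491) and 0.57 without that array.
Stc2, a secreted stanniocalcin gene induced by hypoxia and by stress of the endoplasmic reticulum, had values of 9.56, 9.20, 9.80, 9.43 and 9.42 in control cells and of 10.19, 10.02, 10.58, 9.92 and 10.14 at 24 h. Replicate 3 was the highest array of each group, and the log2 fold change was 0.69 (standard error 0.16, adjusted p = 0.307).
Yeats2, whose product reads acylated histones within an acetyltransferase complex, had values of 7.07, 6.95, 7.26, 6.84 and 7.05 in control cells and of 7.49, 7.66, 7.79, 8.23 and 7.72 at 24 h. Every treated array lay above the highest control array, and the log2 fold change was 0.74 (standard error 0.17, adjusted p = 0.307).
Tango2, a gene needed for coenzyme A and lipid metabolism, had values from 7.74 to 8.44 in control cells and from 8.71 to 9.19 at 24 h, with a log2 fold change of 0.68. Plscr2, a phospholipid scramblase gene, had values from 6.04 to 6.60 and from 6.76 to 7.27, with a log2 fold change of 0.67. Prpsap1, which encodes a regulatory subunit of phosphoribosyl pyrophosphate synthetase, had values from 10.80 to 11.64 and from 11.70 to 12.13, with a log2 fold change of 0.51, and 0.35 without both arrays that stood apart. In each of these genes the gap between the groups was narrower than the range of values within either group.
The remaining rises were smaller. Stk39, a kinase gene of ion cotransport, had a log2 fold change of 0.46, and Fubp3, whose product binds single-stranded DNA and RNA, had 0.49. Sprr1b, a gene of the cornified envelope, had 0.56, with 1 control array (replicate 5, at 5.57) far below the others (6.25 to 6.31). The control means of Fubp3 (6.03) and Sprr1b (6.14) lay below the mark, which these genes passed only through the treated arrays. Pakap had 0.42 in 1 of its 2 probe sets and 0.02 in the other. Ptprc, the pan-leukocyte phosphatase CD45, had values from 6.52 to 6.92 in control cells and from 7.01 to 7.58 at 24 h, a log2 fold change of 0.51. The other 3 leukocyte markers, Adgre1, Csf1r and Cd3e, lay below the mark in both groups, and whether leukocytes had a part in the value of Ptprc was not tested.

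**Figure D4:**
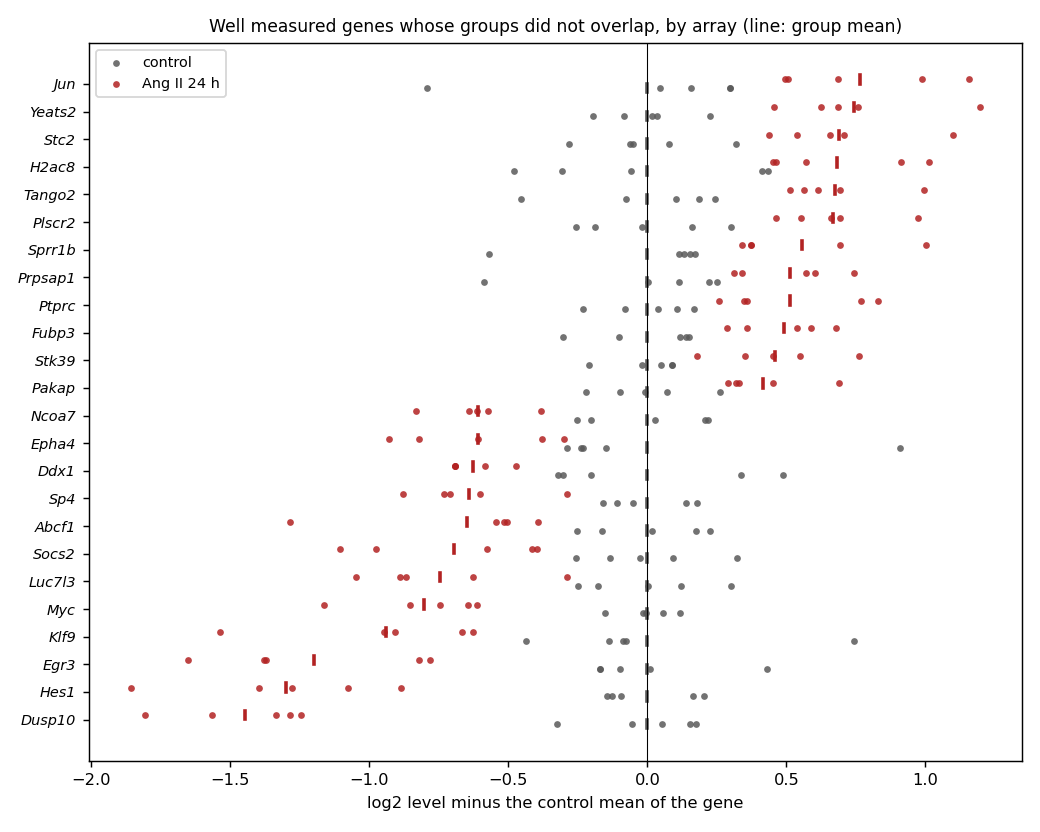
Log2 level of each array minus the control mean of the gene (x axis) for the 24 well measured genes with the largest changes and no overlap (y axis), control in grey and Ang II 24 h in red, with group means as lines. Single arrays far from their group are seen for Klf9, Epha4, Abcf1, Jun and Sprr1b.

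Gene lists were then described by their counts at an unadjusted p under 0.05. Counts of well measured members are to be read against 6.45% lower and 3.7% higher among all well measured probe sets. Counts over all probe sets of a list are to be read against 3.54% lower and 3.57% higher of all named probe sets. Without both arrays that stood apart, lower calls among well measured probe sets fell from 183 to 97 and higher ones from 105 to 92. Near background, lower calls then fell from 510 to 418 and higher ones from 593 to 507. Unless stated, none of the members named passed the adjustment.
Of the MAP kinase phosphatases and other feedback inhibitors, 4 of 18 probe sets were well measured, 2 of these were lower, and all 4 had a lower mean. Beside Dusp10, the ERK phosphatase gene Dusp5 had a log2 fold change of -0.34 (unadjusted p = 0.0437), with values of 10.00, 9.85, 10.16, 10.20 and 9.89 in control cells and of 9.89, 9.25, 9.88, 9.56 and 9.80 at 24 h, which overlap. The list counted 1 lower member, Dusp10, without both arrays that stood apart, without control replicate 1, 3 or 4 or without Ang II 24 h replicate 2 or 4. Spry4 and Spred1, inhibitors of the Ras to ERK pathway, had -0.02 and -0.06.
Of the early response transcription factors, 9 of 31 probe sets were well measured, of which 4 were lower and 1, Jun, was higher. The median over the 9 was -0.20. The groups did not overlap in 5 of the 9, beside 1.69% lower and 0.67% higher of all well measured probe sets. Fosb, an AP-1 partner of Jun, had values of 9.31, 8.99, 8.97, 9.22 and 9.44 in control cells and of 8.89, 8.83, 8.44, 8.70 and 8.44 at 24 h, a log2 fold change of -0.53 (unadjusted p = 0.00182). Egr2, a relative of Egr3, had -0.55. Jun and Fosb thus lay on opposite sides of their controls. Near background, Klf6 had -0.59, Klf10 -0.58, Nr4a3 -0.62 and Egr1 0.42. Cebpb, an inflammatory leucine zipper factor gene, had 0.08.
Of the Krueppel-like factors, 3 of 4 well measured members were lower, and the median was -0.38. Klf7 had values of 12.71, 12.13, 12.58, 12.35 and 11.64 in control cells and of 12.10, 11.52, 11.87, 11.89 and 11.72 at 24 h, and the groups overlapped through control replicate 5 (log2 fold change -0.46, unadjusted p = 0.0192). Klf13 had -0.29 and Klf12 had 0.24. Over all 17 probe sets 5 were lower, and 3 were without both arrays that stood apart or without control replicate 1.
In the Notch pathway, Hes1 was the only one of 5 well measured members that was lower. The Notch target gene Hey1 had -0.21, the receptor gene Notch2 -0.16 and the protease gene Adam10, whose product cleaves Notch, 0.13. Near background the ligand genes went apart, Dll1 with 0.73 and Jag1 with -0.66, and the feedback inhibitor gene Nrarp had -0.42.
In cytokine and STAT signaling, 2 of 4 well measured members were lower, Socs2 and Lif. Lif, a cytokine gene of the interleukin-6 family, had values of 10.00, 9.24, 9.94, 9.92 and 9.47 in control cells and of 8.98, 9.13, 7.91, 9.29 and 8.87 at 24 h, so that only treated replicate 4 exceeded the lowest control array. Its log2 fold change was -0.88 (unadjusted p = 0.0029). Pim1, a survival kinase gene induced by STAT factors, lay below the mark with a mean of 5.92 over the 10 arrays, and had -0.87. Its control mean, 6.35, lay above the mark and its 24 h mean, 5.48, below it.

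Of 6 well measured matrix members (of 31) 3 were lower and 0 higher, 2 had a higher mean, and the median was -0.25. Fn1, the fibronectin gene, had values of 10.17, 10.50, 9.85, 10.47 and 10.20 in control cells and of 10.10, 9.44, 9.08, 9.86 and 9.87 at 24 h, where replicates 2 and 3 lay below all control arrays and the others reached into their range. Its log2 fold change was -0.57 (unadjusted p = 0.0055). The matricellular genes Thbs1 and Sparc had -0.35 and -0.34, and the membrane protease gene Mmp14, the only one of 3 well measured matrix proteases and inhibitors that was lower, had -0.46. The 24 h mean of Sparc, 6.14, lay below the mark. Near background the list went both ways, with the laminin chain genes Lamc3 at 0.69 and Lamb1 at 0.49 and tenascin, Tnc, at -0.67. Over the 31 probe sets 5 were lower, and 2 were without both arrays that stood apart or without Ang II 24 h replicate 3 alone. Of 6 well measured integrins and adhesion molecules 0 had an unadjusted p under 0.05, among them Itga3 with -0.18 and Itga6 with 0.32.
In the Wnt pathway 7 of 8 well measured members had a lower mean and 1 was lower. That was Tcf7l2, the nuclear effector of beta-catenin, with values of 11.89, 12.16, 12.08, 11.94 and 11.63 in control cells and of 11.59, 11.37, 11.23, 11.37 and 11.47 at 24 h. Its groups did not overlap, by the narrow margin between control replicate 5 and treated replicate 1 (log2 fold change -0.53, unadjusted p = 0.0026). The receptor gene Fzd2 had -0.34. Of 5 well measured TGF-beta and BMP members 0 had an unadjusted p under 0.05, and Smad3 had 0.19.
Ets1, an endothelial ETS factor gene, had values of 9.56, 9.0, 9.73, 9.26 and 9.10 in control cells and of 8.61, 8.65, 8.67, 8.89 and 8.96 at 24 h, a log2 fold change of -0.57 without overlap (unadjusted p = 0.00253).

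Histone genes mostly had higher values at 24 h. Histones package DNA, and most of the clustered genes are transcribed with DNA replication. Of 47 well measured histone probe sets 43 had a higher mean at 24 h, 13 were higher and 1 was lower, with a median of 0.21 beside -0.02 for all well measured probe sets. All 4 classes with members above the mark had medians above 0, with values of 0.22 for 14 probe sets of H2A, 0.15 for 11 of H2B, 0.30 for 11 of H3 and 0.22 for 11 of H4, while 0 of 9 probe sets of H1 were above the mark. The one that was lower was H2az1, with -0.31, a variant gene whose transcription does not depend on replication. The replication-independent H3 genes H3f3a and H3f3b had -0.02 and 0.11. These genes were named after their values were seen. Lower means also occurred in H2B and H4, with lowest values of -0.14 and -0.03. Whether dependence on replication had a part was not tested.
H2ac15 had the largest difference, with values of 12.33, 12.12, 12.54, 12.20 and 13.14 in control cells and of 13.34, 13.15, 12.92, 13.34 and 13.80 at 24 h. It overlapped only through control replicate 5 (log2 fold change 0.84, unadjusted p = 0.000375). H2ac8 had values of 13.78, 13.95, 14.20, 14.69 and 14.67 in control cells and of 14.71, 14.83, 14.72, 15.17 and 15.27 at 24 h, which nearly met (0.68). H4c14 was higher on 4 of the 5 treated arrays, at 10.62 to 10.85, while replicate 3 stood at 9.92 within the control range.
Averaged over the 47 probe sets, the control arrays had 10.28, 10.11, 10.51, 10.41 and 10.60 and the treated arrays 10.64, 10.62, 10.40, 10.75 and 10.69. Treated replicate 3 was thus within the control range and the other treated arrays were above it. Over all 86 histone probe sets 15 were higher and 1 lower, against 22 and 0 without both arrays that stood apart and 9 higher without Ang II 24 h replicate 1. Histone genes of a class resemble each other closely and H3c14 and H3c15 had the same values, so these probe sets do not count as independent genes.
Genes of the cell cycle were set beside the histones. Of 9 well measured members 0 had an unadjusted p under 0.05, with a median of 0.10. Mcm6, of the replicative helicase, had 0.18, the kinase gene Cdk2 0.18, Rrm2, of the ribonucleotide reductase, 0.29 and the cyclin gene Ccne2 -0.35.

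In 37 well measured probe sets of cytosolic ribosomal proteins 2 were lower, a share near the 6.45% of all well measured probe sets. A lower mean was found in 29 of the 37, beside 1518 of all 2836, and the median was -0.07. Rplp0 had values of 7.15, 6.71, 7.92, 7.51 and 7.23 in control cells and of 6.79, 6.91, 6.39, 6.95 and 6.81 at 24 h, which overlap through control replicate 2 (-0.53). Over all 63 cytosolic ribosomal protein probe sets 6 were lower, and 1 was without both arrays that stood apart. Of 6 well measured members of the list of ribosome biogenesis and Myc targets 0 had an unadjusted p under 0.05, 3 had a higher and 3 a lower mean, and Ncl, Fbl and Rrp9 had -0.08, 0.35 and 0.21. Of 8 well measured mitochondrial ribosomal proteins 0 had an unadjusted p under 0.05 and 6 had a higher mean.
Of 25 well measured proteasome subunits 18 had a lower mean and 3 were lower, with a median of -0.17. Psmc4, an ATPase subunit gene, had values of 9.82, 9.01, 10.43, 10.60 and 9.98 in control cells and of 9.16, 9.44, 8.68, 9.36 and 8.93 at 24 h. Control replicate 2 lay among the treated arrays (log2 fold change -0.85, unadjusted p = 0.00132). Psmd3 and Psma1 had -0.43 and -0.35. Over the 47 probe sets 6 were lower, also without both arrays that stood apart, and 3 without control replicate 1.
Of 23 well measured splicing factors 4 were lower and 0 higher. Beside Luc7l3 these were Sf3b1 with -0.41 and U2af2 with -0.38, both without overlap, and Pnisr with -0.34, whose groups overlapped. Sf3b1, of the U2 snRNP, had values of 6.68, 6.54, 6.91, 6.77 and 6.44 in control cells and of 6.34, 6.11, 6.28, 6.33 and 6.22 at 24 h. Its 24 h mean, 6.256, lay just below the mark. Over the 35 probe sets 4 were lower, against 1 without both arrays that stood apart and 2 without Ang II 24 h replicate 3, control replicate 2 or control replicate 3 alone.

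Metabolic lists were mixed. Of 10 well measured glycolysis and hypoxia genes 2 were higher, both stanniocalcins, Stc2 and Stc1 (0.41), and 0 were lower. The control mean of Stc1, 6.16, lay below the mark. The glycolytic regulator gene Pfkfb3 had -0.32, Hif1a -0.26 and Vegfa 0.11. Of 20 well measured genes of oxidative phosphorylation 2 were higher and 2 lower. Cox6c, of cytochrome c oxidase, had values of 6.81, 6.85, 6.70, 7.22 and 7.07 in control cells and of 7.44, 8.50, 7.78, 7.98 and 7.0 at 24 h, where replicate 5 stayed in the control range (0.81, unadjusted p = 0.00158). Sdhc had 0.42, Atp5g3 -0.41 and Ndufv2 -0.40, and the control mean of Sdhc, 6.15, lay below the mark. With its members near background included, the list counted 5 higher and 4 lower, against 2 and 2 without both arrays that stood apart. Insig1, a brake on cholesterol synthesis, had 0.36, while Srebf2, Mvd and Acly of the same list had 0.01, -0.05 and 0.13.
Of 7 well measured genes of the unfolded protein and Atf4 response 1 was lower, the cystine transporter gene Slc7a11, with values of 6.92, 7.0, 7.56, 6.54 and 6.83 in control cells and of 6.45, 6.59, 6.18, 6.63 and 6.59 at 24 h (-0.48, unadjusted p = 0.00806). Atf4 itself had 0.22. Of 5 well measured heat shock genes Hspb1 was lower with -0.40, without overlap, and 0 of the list were lower without both arrays that stood apart, or without control replicate 1, control replicate 3 or Ang II 24 h replicate 3 alone. Noxo1, an organizer of NADPH oxidase, had 0.47. The inflammatory lists were hardly measured, with 1 of 30 NF-kB and chemokine probe sets and 2 of 25 interferon probe sets above the mark. Cxcl12 had -0.29, and the interleukin-1 receptor gene Il1r1, below the mark, had 0.63.

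**Figure D5:**
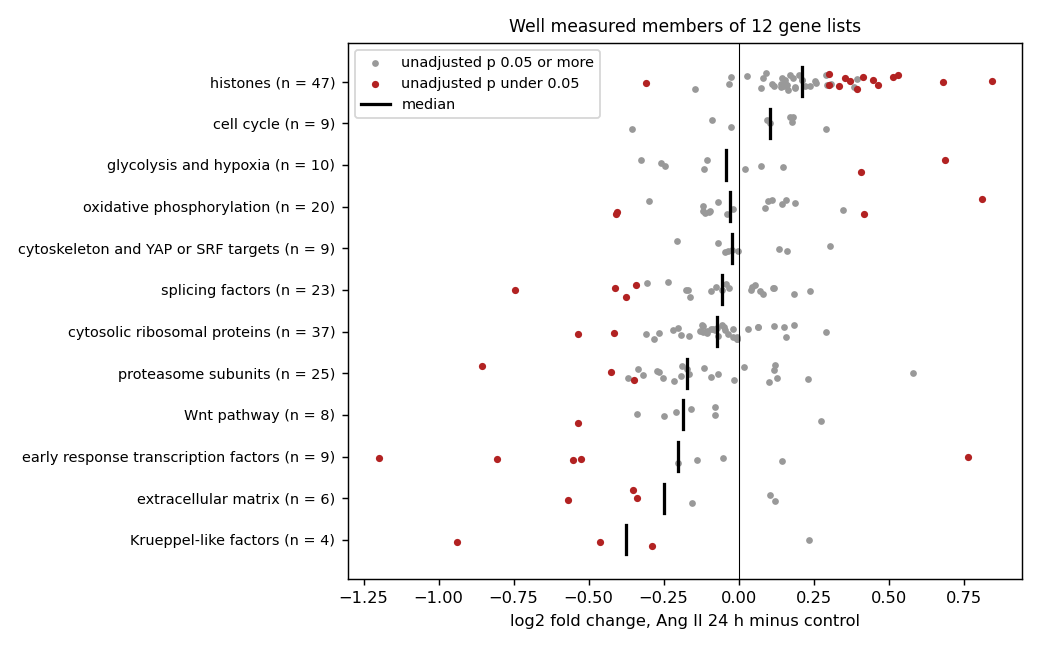
Log2 fold change of Ang II 24 h over control (x axis) of each well measured member of 12 gene lists (y axis), red where the unadjusted p is under 0.05, with the list median as a black line. Histones have the highest median (0.21) and the Krueppel-like factors the lowest (-0.38) of the 12, beside -0.02 for all well measured probe sets.

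Genes of the hormone system and of lymphatic growth were mostly below the mark. Of 12 renin-angiotensin probe sets 3 were well measured and 0 of these had an unadjusted p under 0.05. The type 1 receptor gene Agtr1a had values of 5.76, 5.26, 5.91, 5.19 and 5.67 in control cells and of 5.93, 5.25, 4.97, 5.38 and 4.82 at 24 h, all below the mark and overlapping (log2 fold change -0.29, unadjusted p = 0.164). Ace, the converting enzyme gene, had 0.48 and Agtr1b -0.46, both near background.
Vegfc, the main lymphangiogenic ligand gene, had values of 6.24, 6.71, 6.28, 6.26 and 6.21 in control cells and of 6.21, 6.37, 6.34, 6.37 and 6.18 at 24 h, at the mark and without a visible shift (-0.05, unadjusted p = 0.726). Fgfr1 and Fgf2 had -0.35 and -0.29. Of the lymphatic markers Lyve1 had 0.07 (unadjusted p = 0.653), Prox1 -0.18 (0.378), Flt4 0.25 (0.159) and Pdpn 0.27 (0.0612), all near background, where a change of a transcript present at a low level may not be seen. Kdr, the receptor gene VEGFR2, had values of 3.83, 4.30, 3.70, 4.27 and 4.21 in control cells and of 4.35, 4.85, 5.24, 4.28 and 4.74 at 24 h. It overlapped in 1 treated array (0.63, unadjusted p = 0.0063).

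Near background, the 3 rises with the smallest p-values were Olfr77, Nlrp9a and Olfr1195, and the 3 falls were Olfr206, Pim1 and Ip6k2, each with an adjusted p of 0.307. Olfr77, an olfactory receptor gene, had values of 4.52, 4.14, 4.44, 4.91 and 4.72 in control cells and of 5.35, 7.07, 6.0, 5.42 and 5.66 at 24 h. A single treated array, replicate 2, was above the mark, and the log2 fold change was 1.35 (standard error 0.31). Olfr1195 had 0.98 and Nlrp9a 0.90, both with overlap. Olfr206 had -0.85 and Ip6k2, an inositol hexakisphosphate kinase gene, -0.67. Of 1080 olfactory receptor probe sets 17 were above the mark, and over all of them 60 were higher and 27 lower, beside 3.54% higher and 3.05% lower of all probe sets near background. Without both arrays that stood apart 45 were higher and 31 lower, and without control replicate 3 alone 46 were higher. The identity of a signal from such closely related genes is uncertain.
Next to the mark, Hsph1 and Jaml lay just inside, with log2 fold changes of 0.28 and 0.41, and Mbtps1 and Olfr679 just outside, with 0.18 and -0.11. At the other end 4 probe sets, among them that of Tmsb4x, stood at the ceiling of 19.93 on every array, where no change can be seen.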

How the data were processed

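Mouse LECs were profiled on 15 arrays, 5 per group. The authors read the arrays with GCOS, also named in the submitters' notes, and normalized them with RMA in the Transcriptome Analysis Console, and deposited the resulting log2 values. The probe set identifiers are of another array design than the methods name, with a genome build not given in the sources used here. Symbols came from the platform annotation, and 2634 probe sets without exactly 1 symbol were tested but not named.
All 15 arrays were fitted with limma 3.58.1 (R 4.3.3), which pools the spread over the 3 groups, with a two-sided contrast of 24 h against control and the Benjamini-Hochberg adjustment over 22206 probe sets. The number of arrays limits the precision.
Named were all genes at an adjusted p under 0.05, the 12 largest well measured rises and falls without overlap at an unadjusted p under 0.01, the 3 smallest p-values each way near background, up to 4 members per list, the genes the paper names, and those next to the mark. Other genes (Egr1, Egr2, Klf6, Klf10, Nr4a3, Dll1, Jag1, Nrarp, Lamc3, Lamb1, Tnc, H2az1, H3f3a, H3f3b, H3c14, H3c15, Ube2u, Gm5885 and Nsun3) were chosen after their values were seen. The members and lists were chosen with earlier results of these data known. Alternatives changed the arrays, filter, normalization, variance model, block, averaging and test. The authors' PCR, protein and animal experiments were not analysed here.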

Additional observations from a re-analysis of the deposited data

Results flagged for a closer look

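Among the named genes, 360 groups of 5 arrays were examined for an array far from the others, and 17 (4.72%) had one whose gap to the nearest array took more than 0.71 of the range. Chance gives about 1 in 20, so the number is near what chance gives. Of the 17, 4 were on Ang II 24 h replicate 3 and 2 on control replicate 3.
In the control group, replicate 1 was low for Jun (8.43), replicate 2 was high for Vegfc (6.71) and Nid1 (8.66), replicate 3 was high for Epha4 (8.62) and Fgfr1 (10.02), and replicate 5 was low for Sprr1b (5.57) and Irak3 (4.25).
At 24 h, replicate 1 was high for Taar6 (5.42) and low for Hif1a (6.33), replicate 3 was low for H4c14 (9.92), Rplp0 (6.39) and Abcf1 (5.77) and high for Defb46 (7.65), replicate 4 was high for Pdpn (5.78), and replicate 5 was high for Gapdh (4.86), Bmpr1a (7.17) and Olfr206 (4.41).
Between the time points, Dusp10 (-1.06, limma adjusted p = 0.0424) and Myc (-0.77, adjusted p = 0.0452) were lower at 24 h than at 12 h by the test of the difference itself, and in both genes all 5 arrays of 24 h lay below all 5 of 12 h.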

How the results depend on the processing

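Of 26 alternatives to the setting for the calls, every one kept Dusp10 and Hes1 among the lower genes, and 0 genes were higher under any. The count of lower genes was 4, and it was 2 (Dusp10 and Hes1) with only the 10 arrays of both groups and without control replicate 3 and Ang II 24 h replicate 3 together. It lay between 2 and 4 as single arrays were left out. With only probe sets above the mark 5 were called, with Luc7l3 added. The well measured probe sets lower at an unadjusted p under 0.05 numbered 183, 97 without both arrays, and 133 to 226 with single arrays left out. The higher ones numbered 92 to 119 with single arrays left out, and near background 440 to 558 were lower and 497 to 654 higher. With a mark 1 log2 unit higher or lower, the percent of well measured probe sets that were lower was 8.1 or 4.9. Of all 180 named genes 23 changed sign under some alternative. Of the 24 genes named by size 0 did, but their groups do not overlap. Leaving out arrays could therefore not change their sign, and this 0 does not show that they are more stable. The cause of these shifts was not tested. With the replicate number as a block 3 genes were called (Dusp10, Egr3 and Hes1). Deviations of same-numbered control and 24 h arrays correlated at -0.025 to 0.008. For 3 of 15 arrays the mean correlation with the arrays of the other groups was highest for their own number. These values show no pairing by number, but they cannot tell whether same-numbered arrays were cultured or run together.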
